A study of Ovis aries with 36 samples.

Results

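Of 9568 loci that carry an Ensembl gene identifier and had a mean count of at least 5, 56 were lower in the supraspinatus (SS) than in every other muscle examined, in each of the 4 lambs. SS is the muscle of the shoulder blade in this series, and the other 8 come from the hindlimb, pelvis and loin. From the thigh came the rectus femoris (RF), the adductor (AD), the semitendinosus (ST), the semimembranosus (SM) and the cranial gluteobiceps (GB). From the rump came the gluteus medius (GM), and from the loin the psoas major (PM) and the longissimus lumborum (LL). Expression is given as CPM, the count of a locus scaled to 1e+06 counts over all loci with an Ensembl identifier in the same sample. The loci were chosen by these CPM values themselves: a locus was kept where the CPM of SS was strictly the lowest of the 9 muscles within each animal. 58 loci met this condition, and 2 of the 3 loci that the rule set aside were among them: HOXC10 and a further locus, whereas HOXD8, the other one set aside, did not meet it. Since the SS values chose the loci, the differences between SS and the other muscles are described here without a test.

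All 36 samples came from the same 4 unrelated Poll Dorset cross-bred lambs, with 1 sample of each muscle per lamb taken from the middle of its superficial belly just after slaughter. The lambs were 14 months old, weighed 67 to 72 kg and had been fed soy crop with grain sorghum, so breed, age and diet were shared by all 9 groups. Each muscle therefore had 4 biological replicates, and the number in the sample label, taken as that of the animal, paired the muscles. These are whole-tissue samples, in which fewer cells of a type and less RNA per cell cannot be told apart.

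Skeletal muscles differ in their mixture of slow, oxidative and fast, glycolytic fibres. SS holds the shoulder joint steady during standing and is known as a slow, oxidative muscle. Forelimb and hindlimb muscles also keep the expression of position-dependent developmental regulators, the HOX genes, into adult life.

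Samples held 3699148 to 6427422 counts in all and 905623 to 1878225 counts over loci with an Ensembl identifier, which is the total used for CPM. A floor of 3 counts corresponded to 1.60 to 3.31 CPM, and this floor covers counting error only. The 4 most counted loci without an Ensembl identifier took 65.7% to 78.3% of the counts over all loci. They are not part of the total used for CPM. In all 54 pairs of samples of 1 muscle, the counts differed by more than sampling noise (chi-square divided by its degrees of freedom, 5.01 to 26.8). The muscle fibre markers and the markers of other cell types could not be checked by name, because 0 of the genes on the 11 marker lists had a position paired with a locus.

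SS was the lowest muscle in 0 animals for 6352 of the eligible loci, in 1 animal for 2412, in 2 animals for 599, in 3 animals for 147 and in 4 animals for 58. Applied to the other muscles, with no locus set aside, the same rule kept 36 loci lowest in ST, 24 in LL, 12 in SM, 9 in AD, 4 in PM, 1 in RF and 0 in GB or GM. For loci highest in a muscle, it kept 49 in SM, 25 in SS, 20 in PM and 18 in ST. These counts carry no test, since the values that were counted also made the choice.

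The size of the difference varied widely among the 56 loci. Within-animal differences in log2(CPM + 1) between SS and the mean of the 8 other muscles were averaged over the 4 animals, and are given as mean ± SD (n = 4) or as the fold they correspond to, which understates the change of loci with few counts. The median fold was 1.67, with a range from 1.23 to 4.70. The other muscles were at least 2-fold above SS at 15 loci, between 1.5- and 2-fold at 27 and below 1.5-fold at 14. At 20 loci every SS sample lay below each of the 32 other samples, also across animals, and at 36 loci the ranges overlapped. Among all eligible loci, 0.219% had such a full separation, a share that the rule itself sets for the loci it kept. The 56 loci were more deeply counted than most, with a median of the mean count of 162 against 25.4 over all eligible loci, but 10 of them had a mean count under 50 and 6 had fewer than 10 counts in at least 1 SS sample.

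**Figure D1:**
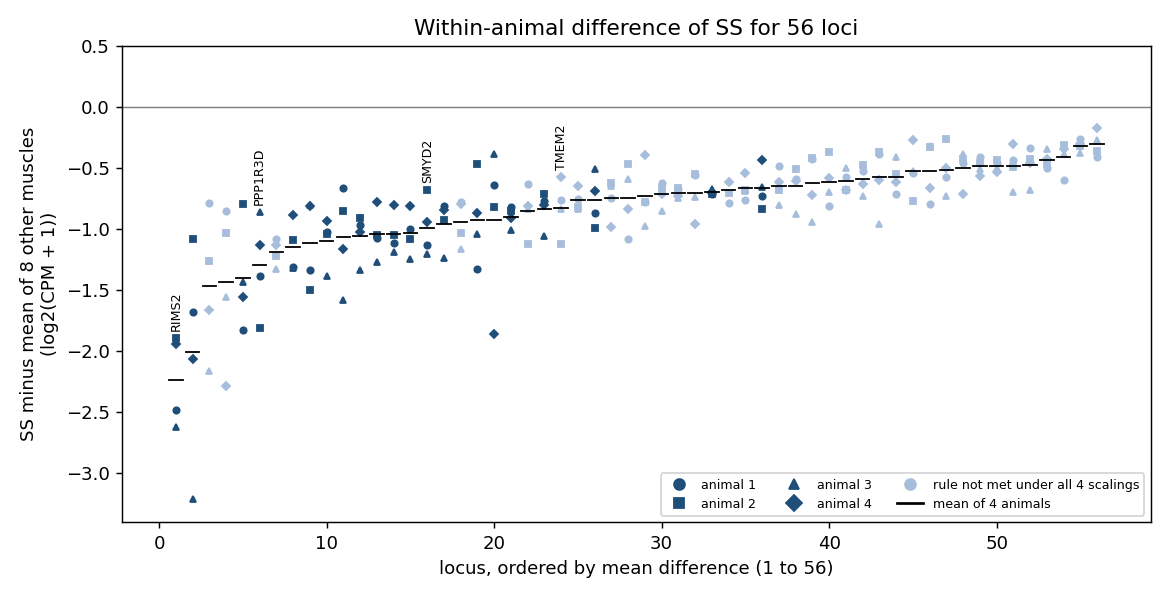
Within-animal difference between SS and the mean of the 8 other muscles, in log2(CPM + 1), for the 56 loci ordered by size, with 1 point per animal and a bar at the mean. All points lie below 0 as the rule requires, the spread among animals differs between loci and is widest at the locus of rank 2, and the dark points are the 21 loci that met the rule under all 4 scalings tried.

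Symbols could be paired with 4 of the 56 loci, RIMS2, PPP1R3D, SMYD2 and TMEM2. These symbols came from the study's tables of genes that differed between SS and ST or SM. Only genes already reported there could be named, and these 4 were reported there as lower in SS. The other 52 are given by their position on the Oar_v3.1 assembly, as chromosome, start and end of the assembled locus, and what kind of gene they are is not known from the files. Which part of a gene is exon, intron or UTR was not analysed here.

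RIMS2 (chr9:72976729-73464816), which codes for a scaffold protein of the presynaptic active zone that takes part in neurotransmitter release, had the largest difference of all 56. Its expression in SS was 2.32, 2.48, 1.38 and 3.14 CPM in animals 1 to 4, against 1.97 to 37.8 CPM (median 16.1) in the 32 other samples. The SS samples and those of RF were low, with a small overlap, since RF of animal 3 lay below 3 of the SS samples. The within-animal difference was -2.23 ± 0.37, or 4.70-fold. By muscle, RIMS2 was at 2.33 ± 0.725 CPM in SS (SD, n = 4 here and below), 4.93 ± 2.88 in RF and 8.25 ± 2.72 in ST. It was at 15.7 ± 1.87 CPM in PM, 16.3 ± 4.36 in SM, 18.4 ± 8.98 in AD and 20.8 ± 10.9 in LL. The highest means were 23.7 ± 3.91 in GB and 28.4 ± 8.55 CPM in GM. From PM upwards, neighbours in this order differed by less than the larger of their SDs. The SS values rest on few reads, 3, 4, 2 and 4 counts, whose sum of 13 gave 2.31 CPM with an exact Poisson 95% interval of 1.23 to 3.95 that covers counting error only.

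PPP1R3D (chr13:55922753-55926015) codes for a subunit that directs protein phosphatase 1 to glycogen. In SS it was at 10.1, 6.21, 10.4 and 9.42 CPM, and in the other samples between 10.9 and 39.4 CPM (median 24.0). All SS samples lay below all others, and RF was again the closest muscle. The difference was -1.30 ± 0.40, or 2.46-fold. Its means were 9.02 ± 1.92 CPM in SS, 14.2 ± 4.01 in RF and 20.4 ± 3.10 in ST. The other 6 muscles lay close together, from 25.2 ± 8.27 CPM in PM and 25.3 ± 9.60 in GM to 27.7 ± 3.51 in SM, with GB at 26.5 ± 4.41, LL at 26.7 ± 7.62 and AD at 27.6 ± 3.59.

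SMYD2 (chr12:67363488-67418074) codes for a lysine methyltransferase with a SET domain that acts on histones and on other proteins of muscle. Expression in SS was 40.3, 58.3, 38.1 and 52.6 CPM, and the other samples ranged from 59.0 to 127 CPM (median 100.1). The groups did not overlap, but RF came close, at 60.8, 59.5, 59.0 and 59.7 CPM in animals 1 to 4. In animal 2 the RF value was only 1.02 times that of SS. The difference between SS and the mean of the others was -0.99 ± 0.23, or 1.99-fold. The other 7 muscles had means between 87.6 ± 12.6 CPM in PM and 113 ± 11.6 CPM in LL, so that SS at 47.3 ± 9.74 and RF at 59.7 ± 0.748 stood below them. GB was at 89.7 ± 13.7 CPM, GM at 98.3 ± 8.47, AD at 102 ± 10.6, ST at 103 ± 14.3 and SM at 111 ± 7.07, and all neighbours among these 7 differed by less than the larger of their SDs.

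TMEM2 (chr2:64359425-64440445), which codes for a transmembrane protein that degrades hyaluronan at the cell surface, was at 49.5, 31.7, 33.9 and 42.4 CPM in SS. The other samples had 34.2 to 116 CPM (median 70.3), and the ranges overlapped across animals. In animal 3, SM at 34.2 CPM was nearly as low as SS at 33.9 CPM, a ratio of 1.01. The difference was -0.82 ± 0.23, or 1.77-fold. TMEM2 was highest in ST, at 96.6 ± 18.1 CPM, followed by LL at 81.0 ± 21.5, GM at 76.2 ± 6.94, GB at 73.0 ± 18.4, PM at 69.6 ± 6.47, AD at 63.1 ± 8.08, SM at 58.6 ± 18.0 and RF at 54.6 ± 10.9, with SS at 39.4 ± 8.21 CPM. Neighbours in this order differed by less than the larger of their SDs, apart from RF and SS.

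**Figure D2:**
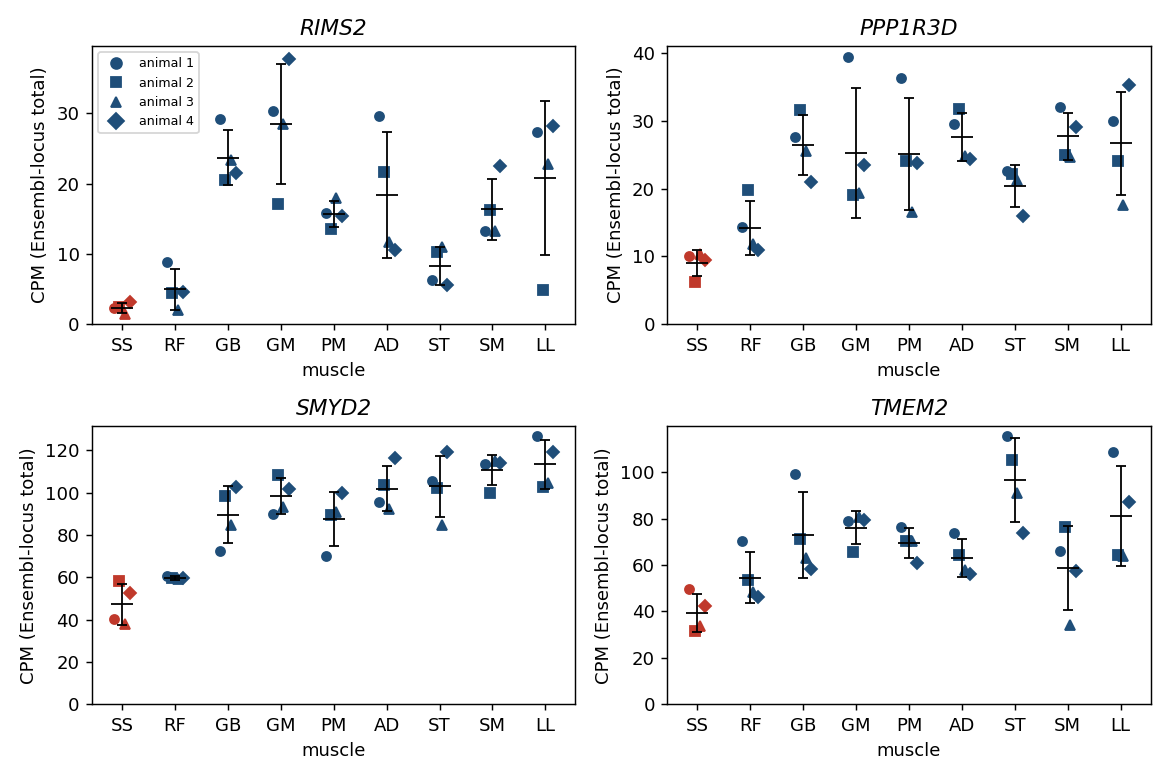
Expression of the 4 loci with a symbol in the 9 muscles, in CPM over loci with an Ensembl identifier, with 1 point per animal (SS in red) and the mean ± SD of 4 animals in black. SS is lowest in each panel, RF is next lowest in each, and the upper muscles differ from gene to gene, with GM highest for RIMS2 and ST for TMEM2.

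Among the loci known by position, the largest difference was at chr7:5487863-5491174, at -2.01 ± 0.90 or 4.02-fold. Its SS values were 2.32, 3.10, 0 and 0.785 CPM, against 2.57 to 16.8 CPM (median 8.83) elsewhere. The 4 SS samples together held 9 counts, equal to 1.60 CPM with an exact Poisson interval of 0.732 to 3.04, and the SS sample of animal 2 lay above the lowest of the other samples. In this locus the animals differed most in the size of the change, from -1.08 in animal 2 to -3.21 in animal 3, where SS had no count.

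Next came chr9:94346997-94490628 (ENSOARG00000017789), at 96.0, 77.6, 40.8 and 62.8 CPM in SS and 98.3 to 347 CPM (median 186) in the others. The ranges did not overlap, although SS of animal 1 and RF of animal 3 were close. The difference was -1.47 ± 0.59, or 2.76-fold. At chr3:25879082-25903038 SS had 7.74, 8.07, 6.23 and 3.14 CPM and the others 9.91 to 55.1 CPM (median 16.8), again without overlap, for a difference of -1.43 ± 0.64. Its 4 SS samples held 36 counts in all.

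The locus at chr11:49768832-49810034 had 14.7, 20.5, 17.3 and 12.6 CPM in SS and 22.5 to 87.7 CPM (median 44.6) in the other muscles, with no overlap and a difference of -1.40 ± 0.44. The interval covers the position that the study's gene tables give for SLC16A3, which they report as higher in SM than in SS. A second locus with an Ensembl identifier has the same interval. Which of the 2 is SLC16A3 is therefore not known, and no symbol was given to either. The second locus was counted about as often, with a mean count of 61.4 against 61.9, but the edgeR comparison of SS with the mean of the 8 other muscles gave it a log2FC of -0.19 with an adjusted p of 0.436. The labels do not say whether reads were counted by strand, and reads of loci that overlap are uncertain.

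Of the 6 further loci with large differences, all but 1 had mean counts over 150. At chr11:26050413-26060517 SS had 896, 724, 728 and 722 CPM and the others 958 to 2643 CPM (median 1769.7), a 2.28-fold difference with a small spread, -1.19 ± 0.11. At chr7:18780797-18808574 SS was nearly constant, at 475, 497, 472 and 514 CPM, and the others ranged from 681 to 1585 CPM (median 1129). Neither locus showed an overlap between SS and any other sample. The same held at chr13:74099958-74125478, with 11.6, 11.2, 15.9 and 16.5 CPM in SS and 18.0 to 49.3 CPM elsewhere, and at chr18:54987212-55132689, with 52.6, 52.1, 44.3 and 61.2 CPM in SS and 76.4 to 153 CPM elsewhere. At chr21:25593909-25643167 SS had 842, 726, 617 and 806 CPM and the others 883 to 2905 CPM (median 1579.6), without overlap. At chr15:51879873-51940273, unlike the other 5, the ranges overlapped, with 67.3, 81.3, 33.2 and 66.7 CPM in SS and 57.0 to 295 CPM elsewhere. Differences at these 6 loci other than chr11:26050413-26060517 lay between -1.06 and -1.15.

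The most counted of the 56 was chr24:26211003-26227471, with a mean of 8714 counts per sample. SS had 2791, 2873, 2968 and 3700.2 CPM and the other samples 4530.4 to 8874 CPM (median 6334), with no overlap and a difference of -1.04 ± 0.17. At chr7:44019267-44048143 SS had 2005, 1718, 1825 and 2539 CPM and the others 2304 to 7110.2 CPM (median 3856), so SS of animal 4 lay above the lowest of the others. The difference there was -0.94 ± 0.19. At chr21:42295247-42307187 SS was at 1629.5, 1657, 1515 and 1808 CPM against 1987 to 3712 CPM, for a difference of -0.76 ± 0.08, and at chrJH922959.1:14622-26464, on an unplaced scaffold, at 2274, 1815, 1786 and 2194 CPM against 2421 to 4060.0 CPM, for -0.65 ± 0.13. At neither of these did an SS sample overlap the others. The 36 loci not named one by one had folds of 1.23 to 2.06, with a median of 1.59. Taken as a sum, the 56 loci made up 1.61% ± 0.136 of the counts over loci with an Ensembl identifier in SS, from 2.44% ± 0.294 in RF to 3.51% ± 0.579 in LL among the other muscles.

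At the edge of the rule the next lowest muscle was barely above SS. The smallest ratio between the next lowest muscle and SS, taken at its lowest over the 4 animals, was 1.01 at chr1:190360099-190381413, at TMEM2 and at chr3:203756534-203786461. For the last of these SS had 547, 674, 529 and 599 CPM and RF 554, 772, 569 and 617 CPM, and the difference from the mean of the others was -0.32 ± 0.05. At 31 loci the ratio was under 1.1, and at 14 it was over 1.2. The widest margins were 1.80 at chr7:5487863-5491174, 1.47 at chr18:54987212-55132689 and 1.42 at RIMS2. Just outside the rule were chr5:97073803-97098634, with a ratio of 0.992 because RF was lower in animal 1, chr3:207818408-207823385, with 0.990 because RF was lower in animal 4, and chr7:98882294-98891759, with 0.985 because PM was lower in animal 2. Their mean differences were -0.70, -0.73 and -0.65, as large as those of many loci inside, so the edge separates loci by a small margin in a single animal.

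Membership also moved with the scaling of the counts. With the total over all loci as the denominator, 39 loci met the rule and 31 of them were among the 56. With TMM library sizes 40 met it, 27 of them shared, and with RLE size factors 44 met it, 32 of them shared. Of the 56 loci, 21 met the rule under all 4 scalings, 10 under 3, 7 under 2 and 18 only under the scaling of the rule. The 21 had a median fold of 2.05 and the 18 a median fold of 1.47. RIMS2, PPP1R3D and SMYD2 were among the 21, as were 12 of the 15 loci with at least a 2-fold difference, and TMEM2 met the rule under 3 scalings. The median of SS against the 8 other muscles over all eligible loci was between -0.01 and 0.00 on the log2 scale under the 4 scalings, so the scalings did not shift SS as a whole. With TMM library sizes, the log2FC of SS was negative at all 56 loci, with a median of -0.76. The choice of the loci from the same counts largely sets this sign.

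The rule did not rank the other 8 muscles among themselves. Over the 224 pairs of a locus and an animal, RF was next lowest after SS in 93 (41.5%), followed by GB in 36, LL in 23, GM in 20, PM in 18, ST in 14, SM in 13 and AD in 7. Over all eligible loci, RF was the lowest of the 8 in 13.5% of pairs. GB, too, was next lowest more often among the 56 (16.1%) than it was lowest over all eligible loci (7.27%), whereas LL was so less often (10.3% against 21.3%). The same held for ST (6.25% against 18.0%), SM (5.80% against 13.2%) and AD (3.125% against 9.58%). GM (8.93% against 7.02%) and PM (8.04% against 10.1%) were nearer to their shares over all eligible loci. At the other end, LL was the highest of the 8 in 93 pairs (41.5%), against 7.73% over all eligible loci, and RF was the highest in 0 pairs, against 8.20%. ST was highest in 36 pairs (16.1%, against 9.26% over all eligible loci) and SM in 35 (15.6%, against 19.4%). Pairs from 1 locus or 1 animal share their source and are not independent, and these shares are a description.

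The muscle means were compared in the same way. Relative to the mean of the 8 muscles without SS, the median over the 56 loci was -0.74 in SS and -0.22 in RF on the log2(CPM + 1) scale. It lay at -0.08 in GB, -0.05 in GM, 0.01 in PM, 0.02 in ST, 0.07 in SM, 0.10 in AD and 0.18 in LL. Over all eligible loci the median on this scale was itself shifted, to 0.11 in GB, 0.08 in GM, -0.07 in RF and -0.12 in LL. Relative to these shifts, the 56 loci were lowest in GB, at -0.19, followed by RF at -0.16 and GM at -0.13, and highest in LL, at 0.31. The place of RF below the other 7 muscles thus held for CPM as such and not relative to all loci, whereas LL was highest either way. RF was above the mean of the 8 at 1 of the 56 loci and LL at 51. In single samples, the median over the loci relative to the mean of each locus over all 36 samples lay between -0.73 and -0.64 in SS. RF was at -0.05, -0.10, -0.25 and -0.28 in animals 1 to 4, the nearest to SS in animals 2, 3 and 4, whereas GB at -0.09 was the nearest in animal 1. LL was at 0.38, 0.45 and 0.35 in animals 1, 3 and 4 but at -0.06 in animal 2, so 1 LL sample stood apart from the other 3. The other 6 muscles lay between -0.09 and 0.31.

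**Figure D3:**
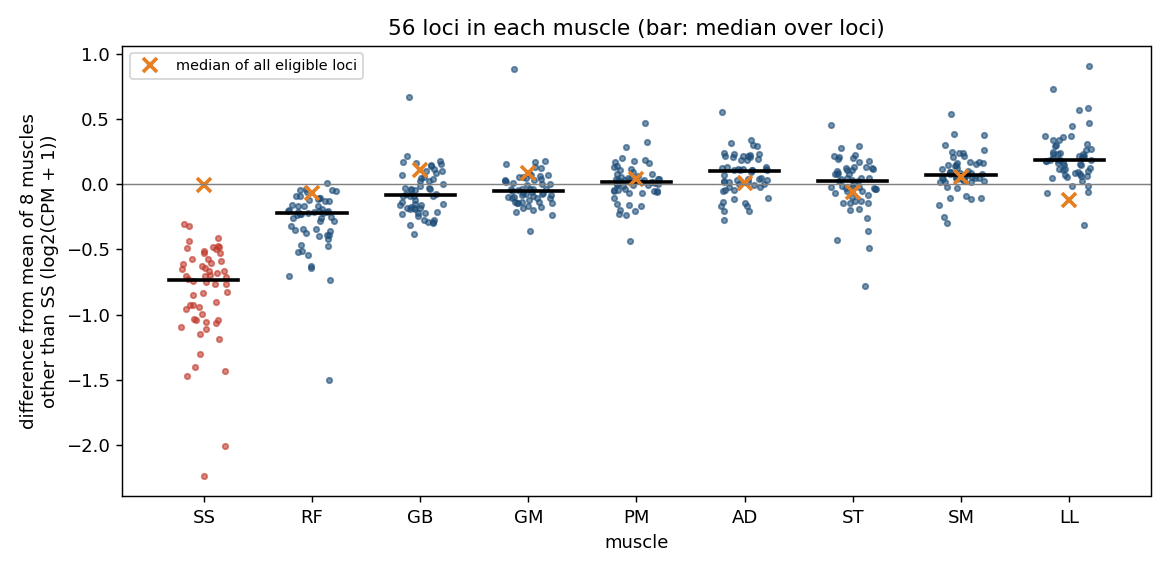
Mean log2(CPM + 1) of each of the 56 loci in each muscle (1 point per locus, mean of 4 animals) relative to its mean over the 8 muscles other than SS, with the median over loci as a bar and the median over all eligible loci as a cross. SS is low by choice of the loci, RF has a median of -0.22 and LL of 0.18, and relative to the crosses GB lies at -0.19, RF at -0.16 and LL at 0.31.

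The differences among the 8 other muscles were tested with the SS samples left out, by edgeR's quasi-likelihood test with animal in the model and Benjamini-Hochberg adjustment over all 12239 loci tested. The values of these 32 samples had entered the rule only by being above SS in their own animal. At an FDR of at most 0.01, 8 of the 56 loci (14.3%) differed among the 8 muscles, against 5.02% of all loci tested. The 56 loci are well counted, however, and loci with more counts were called more often. Of the 46 with a mean count of at least 50, 6 were called (13.04%), against 10.2% of all eligible loci with that count, which is near the background. The 8 loci were chr9:94346997-94490628 (adjusted p = 1.55e-05), TMEM2 (3.10e-04), chr3:25879082-25903038 (3.12e-04), chr7:44019267-44048143 (3.28e-04), RIMS2 (6.81e-04), SMYD2 (0.00213), chr1:271959723-272176612 (0.00435) and chr11:49768832-49810034 (0.00930).

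Each of the 8 muscles was then compared with the mean of the other 7 in the same edgeR fit. The shares over all loci tested given for these comparisons were not matched for mean count, and the 56 loci are well counted. LL was higher at 4 loci (7.14%), where 0.507% of all loci tested were higher. These were chr9:94346997-94490628 with a log2FC of 0.94, chr3:25879082-25903038 with 1.21, chr7:44019267-44048143 with 0.78 and chr1:271959723-272176612 with 0.81. At chr9:94346997-94490628 the LL samples had 291, 279.7, 309.8 and 347 CPM, above every sample of the other muscles. RF was lower at 3 loci (5.36%), against 0.172% of all loci tested. These were RIMS2 with a log2FC of -1.75, SMYD2 with -0.67 and chr9:94346997-94490628 with -0.76, so that the last was called in both directions, high in LL and low in RF. ST was higher at TMEM2, with a log2FC of 0.64, the 1 call in ST (1.79%, against 1.37% of all loci tested). In the opposite directions, edgeR and DESeq2 each called 0 of the 56 lower in LL (0.212% of all loci tested), 0 higher in RF (0.253%) and 0 lower in ST (0.989%), where 0, 0 and 2 loci had an unadjusted p under 0.05.

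In the 5 comparisons of SM, GB, GM, AD and PM, 0 of the 56 loci passed the threshold with edgeR, and DESeq2 called 0 as well. Of all loci tested, 1.34% were higher and 0.368% lower in SM, 0.139% higher and 0% lower in GB, 0.196% higher and 0.0163% lower in GM, 0.0245% higher and 0.00817% lower in AD, and 0.515% higher and 0.123% lower in PM. At an unadjusted p under 0.05 by edgeR, 37 loci were higher in LL and 0 lower, and 16 were lower in RF and 0 higher. In GB 23 loci were lower and 1 was higher, and in GM 9 were lower and 1 was higher. In SM 6 were higher and 1 was lower, in AD 8 were higher and 0 were lower, and in PM 2 were higher and 2 lower. The share of all loci tested under this threshold was not computed, so these counts have no background and are a description. The median log2FC over the 56 loci with TMM normalization was -0.24 in GB, -0.20 in GM and -0.18 in RF, so that on this scale GB and GM lay below RF, and it was 0.34 in LL. The signs were uneven also where no call was made. With TMM normalization the log2FC was positive at 55 of the 56 loci in LL (98.2%), 44 each in SM and ST (78.6%) and 40 in AD (71.4%), whereas it was positive at 20 in PM (35.7%), 7 in GB (12.5%) and 6 each in GM and RF (10.7%). Over all loci tested this share lay between 49.8% and 52.6% in the 8 muscles. The loci share the same samples, and a sample that stands high for 1 locus can stand high for others.

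The calls changed when an animal was left out. Without animals 1, 2, 3 and 4 in turn, the loci that differed among the 8 muscles numbered between 3 and 7 of the 56. Over all loci tested the calls fell as well, from 614 of 12239 to 304 of 12415, 437 of 12133, 293 of 12524 and 228 of 11938. Among the 8 loci, chr9:94346997-94490628 was called in all 4 of these fits, with an adjusted p of at most 0.00254 in edgeR. RIMS2 and TMEM2 were each called in 2 of the 4, with adjusted p up to 0.0251 and 0.0250 by edgeR, and SMYD2 in 0 of the 4, with 0.0108 to 0.0441 by edgeR. The loci chr1:271959723-272176612 and chr11:49768832-49810034 were each called in 1 of the 4, with adjusted p up to 0.133 and 0.123 by edgeR, while chr3:25879082-25903038 and chr7:44019267-44048143 were each called in 3 of the 4. In LL, 2 to 6 loci were higher in these fits, and in RF 0 to 2 were lower.

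The level of an animal was not used by the rule, which ranked muscles within each animal. The libraries were sequenced in 4 lanes with 9 samples each, and the labels do not say which samples shared a lane. Where a lane held 1 animal, animal and lane cannot be told apart. In the 8 muscles without SS, 10 of the 56 loci (17.9%) differed among the 4 animals by edgeR's quasi-likelihood test, against 14.1% of all loci tested. With a mean count of at least 50, 9 of 46 were called (19.6%) against 18.6%, so the share was near the background. The highest and the lowest animal mean at these 10 loci differed by 1.34- to 1.65-fold. The largest of these ratios was at chr5:40571718-40575640, where animals 1 to 4 had means of 47.4, 42.1, 63.7 and 69.2 CPM over the 8 muscles (adjusted p = 8.91e-05, edgeR). TMEM2 was highest in animal 1, at 86.2 CPM against 71.5, 63.7 and 65.0 CPM in the others (adjusted p = 8.34e-04, edgeR). Both TMEM2 and chr11:49768832-49810034 were thus called among muscles and among animals, and the lowest animal was animal 2 at 5 of the 10 loci.

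SS is among the slowest of these muscles, and the level of slow-fibre genes was set beside that of the 56 loci. It was taken as the mean log2(CPM + 1) of 9 loci with a symbol on the slow fibre list, ATP2A2, CASQ2, MYL3, MYOM3, MYOZ2, TNNC1, TNNI1, TNNT1 and TPM3, which code for the calcium pump and calcium store of slow fibres and for sarcomere proteins. Their symbols came from gene tables that the study made from these samples, and the list is not independent evidence of its direction. The mean was 8.54 ± 0.0462 in PM, 8.35 ± 0.453 in SS, 7.99 ± 0.127 in GB, 7.42 ± 0.265 in AD, 7.38 ± 0.422 in GM, 6.95 ± 0.480 in SM, 6.74 ± 0.520 in RF, 6.43 ± 0.470 in LL and 4.88 ± 0.461 in ST. PM was thus at the level of SS in slow-fibre genes. The median over the 56 loci was between 0.04 and 0.23 in the 4 PM samples and between -0.73 and -0.64 in the SS samples. The rule kept only loci with SS below PM in each animal, so this gap was fixed by the choice of the loci. Whether the level of slow-fibre genes bears on the 56 loci was not tested. RF, where the 56 loci were next lowest in CPM, was among the lower muscles for slow-fibre genes, and GB, where they were lowest of the 8 relative to all loci and with TMM normalization, was among the higher ones.

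Across the 32 samples other than SS, with animal means removed, the correlation of a locus with the slow-fibre mean was negative at 39 of the 56 loci (69.6%), with a median Pearson's r of -0.10 and a range from -0.59 to 0.35. Over the 9559 eligible loci outside the slow fibre list, the 56 included, it was negative at 32.5%, with a median of 0.11. The samples share animals and library totals, the slow-fibre loci share those totals with the 56, and the correlations of single loci were weak. They are given as a description.

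**Figure D4:**
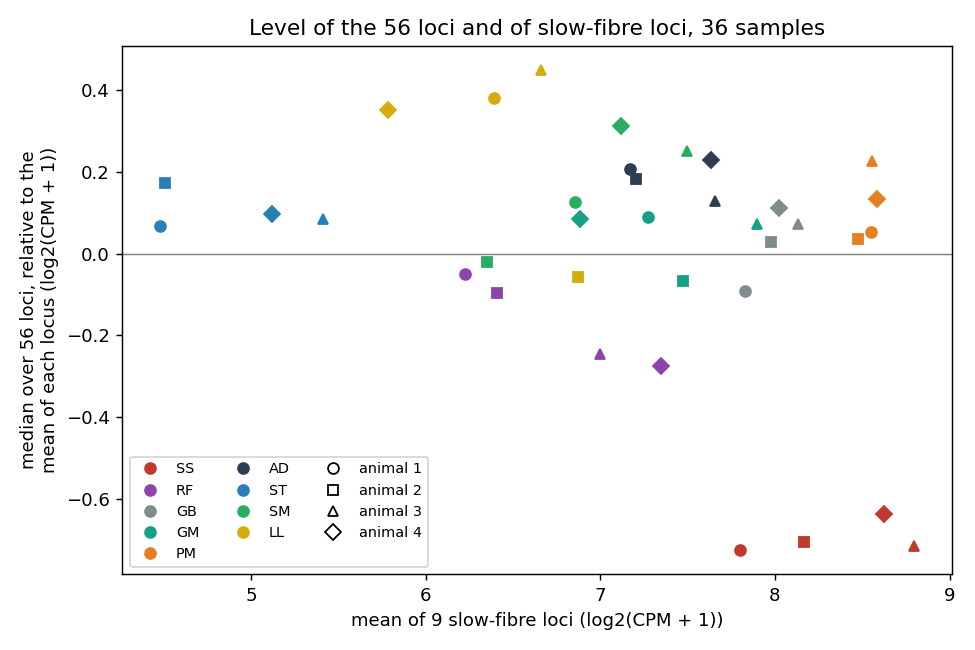
Median over the 56 loci relative to the mean of each locus over 36 samples, against the mean of 9 slow-fibre loci, both in log2(CPM + 1), for each sample (colour for muscle, symbol for animal). The 4 PM samples have slow-fibre levels like those of SS and lie between 0.04 and 0.23 on the vertical axis. SS lies between -0.73 and -0.64 there, below the other muscles by choice of the loci.

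The 56 loci lay on 18 chromosomes and 1 unplaced scaffold, with 8 on chromosome 3, 6 on chromosome 7 and 5 each on chromosomes 1, 2 and 11. Only 3 pairs lay within 500 kb of each other. On chromosome 11, chr11:26004562-26026835 and chr11:26050413-26060517 were 23.6 kb apart, and their levels over the 32 other samples with animal means removed had a Pearson's r of 0.63. On chromosome 7, chr7:43919415-43922882 and chr7:44019267-44048143 were 96.4 kb apart with an r of 0.51, and on chromosome 3, chr3:136026852-136043289 and chr3:136357234-136374338 were 314 kb apart with an r of 0.20. The loci spanned 1.83 to 488 kb, and their median of 28.3 kb was close to the 31.0 kb of all eligible loci.

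Loci without an Ensembl identifier were not open to the rule, so those near the 56 could be compared between SS and the mean of the 8 other muscles. Within 10 kb there were 23 of them, and 9 had enough counts to be tested. With edgeR 1 of the 9 was lower and 0 were higher in SS, where 1.07% of all tested loci without an identifier were lower and 3.16% higher. This locus has the interval of a kept locus, chr3:207527728-207529618, and may hold reads of the same transcript. It had a log2FC of -0.81 (adjusted p = 0.00202, edgeR). Outside such intervals 0 were lower with edgeR, also at an FDR of 0.05, and 1 was lower at an unadjusted p under 0.05. The log2FC was negative at 7 of the 9, with a median of -0.42, against 0.15 over all tested loci without an identifier. Among the 7, chr9:88827443-88973736 at -0.53 also has the interval of a kept locus and may hold its reads. The loci chrJH922959.1:6182-6950 and chrJH922959.1:13546-14130 lie near the same kept locus. The share of negative values over all tested loci without an identifier was not computed, so these signs are a description.

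Of the gene lists drawn up for these muscles, PPP1R3D is on that of glycogen metabolism and SMYD2 on that of muscle protein methyltransferases and chromatin regulators. Positions paired with a symbol covered 17 of the 404 entries on 22 lists, and 16 lists had none, so glycolysis, oxidative metabolism and the neuromuscular junction could not be described as groups. Of the genes on the slow fibre list, 9 of 22 had a locus. In the comparison of SS with the mean of the 8 other muscles, 8 of these 9 were higher in SS and 0 lower by edgeR (2.35% of all loci tested were higher and 1.04% lower), MYL3 being the exception with a log2FC of 0.47 and an adjusted p of 0.207. The other lists with a tested locus held 1 or 2 each. HOXC10 and HOXD8 were lower in SS, EYA1, PVALB and METTL21C were higher and SIM2 had a log2FC of -0.64 with an adjusted p of 0.464, all by edgeR, and these symbols too came from the study's own gene tables.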

How the data were processed

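RNA of 36 muscle samples was sequenced by the authors as 100-base paired reads. According to the submitters' processing notes, TopHat2 2.0.13, Cufflinks 2.2.1 and HTSeq were used with Oar_v3.1, and the authors deposited whole-number counts per assembled locus without normalization. Of 31136 loci, 24763 carry an Ensembl identifier. Each locus was used once. CPM used the total over the latter loci, and differences used log2(CPM + 1).

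The members and the gene lists were chosen with earlier results of these data known. The text names members on a list, the 12 with the largest differences, the 6 with the highest mean CPM, the 5 with the smallest p among the 8 other muscles, those with the 3 smallest and 3 largest margins, and the 3 loci just outside. Further loci called by a test, at the edge of an overlap or in a pair of neighbours were named after their values were seen. Symbols were paired through coordinates in the study's gene tables, and a position covered by 2 loci gave none. The reference gene table matched 0 of the identifiers, and no sequences were used.

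Tests used edgeR 4.0.16 in R 4.3.3 on deposited counts (filterByExpr by muscle, TMM, muscle and animal as factors, quasi-likelihood, FDR of at most 0.01). The number in the sample labels was taken as the number of the animal and pairs the muscles, since 9 samples came from each lamb. The labels themselves do not name it as an animal. The common dispersion corresponded to a biological coefficient of variation of 0.199. The test among 8 muscles was tested on simulated data with 200 of 12239 loci changed in 1 muscle. It called 82 of 100 loci changed 2-fold, 100 of 100 changed 3-fold and 1 of 12039 unchanged. The simulated data had the same dispersion at every locus and no difference among animals, and loci with few counts were not changed. These rates therefore need not hold for the real data. Alternatives were the likelihood ratio test, DESeq2 1.42.0, RLE size factors, other count filters, an FDR of 0.05, no animal term and each animal left out.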

Additional observations from a re-analysis of the deposited data

How the results depend on the processing

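The number of loci lowest in SS in every animal, 56, stayed within 1.5 times under the other scalings (39 to 44) and was 56 with a mean count of at least 10, with no count minimum or with ties allowed, but without 1 animal the rule has only 3 animals to meet and kept 70 to 117 loci. The 8 loci that differed among the 8 other muscles became 14 with the likelihood ratio test, 16 with DESeq2 and 19 with no filter on low counts. They became 16 at an FDR of 0.05 and 3 to 7 without 1 animal each. They became 3 when only the 21 loci that met the rule under all 4 scalings were counted, a choice made after seeing the data. Over all loci tested, 614 of 12239 were called in the main fit and 1430 with the likelihood ratio test. This number was 1053 with DESeq2, 1832 of 28538 with no filter, 1592 at an FDR of 0.05 and 228 to 437 without 1 animal each. The 8 calls over the single muscles became 17 with no filter, 19 at an FDR of 0.05, 3 to 8 without 1 animal each and 2 among those 21 loci. Over all loci tested, 763 such calls became 2438 with no filter, 1967 at an FDR of 0.05 and 272 to 489 without 1 animal each. The 10 loci that differed among animals became 20 at an FDR of 0.05, 6 to 7 without 1 animal each and 3 among the 21. Over all loci tested, 1724 became 3053 at an FDR of 0.05 and 911 to 1463 without 1 animal each. The 1 lower locus near the 56 became 0 outside the interval of a kept locus and was 0 to 1 without 1 animal each. The 13 loci of the gene lists that were called between SS and the other muscles numbered 10 to 13 without 1 animal each.

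With no replicate block for the animal, 5 loci differed among the 8 muscles (184 of all loci tested). There were 4 calls over the single muscles (243 over all loci tested), 0 nearby loci lower in SS and 13 list loci called. The other alternatives, RLE size factors in the tests, at least 10 counts in every sample, all 36 samples in the fit and a distance of 50 kb, left these counts within 1.5 times. Counting only a part of the loci cannot raise the number of calls. The cause of the other changes, those without 1 animal included, was not tested. Depth limits the loci with few SS counts most, RIMS2 and chr7:5487863-5491174 among them.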

Other observations

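At 12 of the 56 loci another locus with an Ensembl identifier has the same interval. At chr1:271959723-272176612 there are 2 such loci, and only 1 of them was examined. The mean count of the partner was 0 at chr9:94346997-94490628. The partners examined were less counted than the kept locus at 11 of the 12. The exception was chr1:104608861-104657533, where the partner had a mean count of 58.0 against 28.9. In the edgeR comparison of SS with the mean of the 8 other muscles, 8 of the partners examined had enough counts to be tested. The partner at chr3:138198426-138280543 was lower in SS, with a log2FC of -0.57 (adjusted p = 0.00702), and the partner at chrX:65709703-65746217 was higher, with 1.13 (adjusted p = 0.00369), although the kept locus there was 1.94-fold lower in SS. The other 6 did not pass the threshold, with log2FC from -0.32 to 0.04. Whether the partners lie on the opposite strand is not stated in the sources used here.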
